A study of Cyprinus carpio with 6 samples.

Results

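The citrate cycle enzymes of the common carp (Cyprinus carpio) brain were taken as the rows of the deposited gene table that carry the KEGG citrate cycle pathway, less those that also carry oxidative phosphorylation or the GO term for glycolysis. This left 76 of the 53152 genes in the table. Of the 88 citrate cycle rows, 12 were set aside, all of them for oxidative phosphorylation and none for glycolysis, so most succinate dehydrogenase subunits are not among the members. The study sequenced polyadenylated RNA from brain and asked how exposure to lead, a neurotoxic metal, bears on brain injury. Its groups are the lead group, with the agent given as lead (3 libraries), and the control group, with the agent given as none (3 libraries). The labels give no strain, age, dose or duration of exposure, and do not say whether the libraries come from separate fish. The p-values here thus set the difference between groups against no more than the spread among these libraries. That spread is possibly technical, so the p-values may not extend to other fish.

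The citrate cycle runs in the mitochondrial matrix. It joins acetyl-CoA to oxaloacetate, oxidises the resulting citrate stepwise back to oxaloacetate, and passes the electrons to the respiratory chain. Pyruvate dehydrogenase feeds it with acetyl-CoA from glucose, and pyruvate carboxylase refills oxaloacetate, a reaction that in the mammalian brain is placed mainly in astrocytes. Citrate leaves the mitochondrion to be split again by ATP-citrate lyase for lipid and acetylcholine synthesis, and 2-oxoglutarate is the point where the cycle meets glutamate. The carp lineage has an extra genome duplication, so that many of these enzymes are present as several gene copies.

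The 76 members fell into 29 groups of enzymes or subunits. The description named the enzyme for 51 of them, the KEGG orthology number alone did so for 16, and for 9 the description named another protein. Of all members, 17 overlapped another row of the table, 13 of them on the same strand. A newer RefSeq gene annotation held the gene IDs of 56 members and typed 6 as pseudogenes, among them LOC109050855 and LOC109092071. Only 58 reached 1 FPKM in 3 or more libraries and were tested, and the other 18 had mean levels of at most 1.21 FPKM. FPKM, the fragment count adjusted for transcript length and library size, serves here to compare levels between genes. Total counts ran from 27841520 to 34848243 per library, and neuronal, astroglial and oligodendrocyte marker genes, the last at 3673 to 4077 summed CPM in lead brains and 3399 to 6745 in control brains, were present in each of the 6 libraries. Of 24 skeletal muscle marker rows, 5 were high enough to be tested.

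Between lead and control brains, edgeR called no member of the pathway and DESeq2 called 4. With edgeR's quasi-likelihood test, 0 of 58 members passed a Benjamini-Hochberg adjusted p of 0.05, against 19 of 32149 genes tested (0.0591%), and the smallest adjusted p of a member was 0.161. At an unadjusted p under 0.05, 10 members were lower in lead brains (17.2%, against 8.77% of all genes) and 5 were higher (8.62%, against 7.53%). The 3 lead libraries all lay below the 3 control libraries in 14 members (24.1%, against 12.6% of all genes) and all above them in 6 (10.3%, against 11.9%). With 1 library left out, separate groups are more common in any gene: 13 members (22.4%) then lay above without lead replicate 2, against 16.03% of all genes, and 10 (17.2%) without lead replicate 3, against 18.8%. The median log2 fold change of the members was -0.09, against -0.01 over all genes, with 34 members below 0 and 24 above.

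This balance moved with the scaling and the libraries. Library totals as the only scaling shifted the median of all genes by -0.10, and at an unadjusted p under 0.05 the members then held 13 lower and 3 higher, while 72.3% of all genes under that p were lower, against 53.8% with TMM scaling. With limma on log2(FPKM + 1) the counts were 14 lower and 2 higher, and 71.1% of all genes under that p were lower. At that p, 2 members were higher without lead replicate 1, where 5.26% of all genes were, and 2 without control replicate 3, where 4.56% of all genes were. In the main edgeR fit, 10 of the 39 tested members whose description names the enzyme were lower at that p (25.6%, against 8.77% of all genes). Of the same 39, 1 was higher (2.56%, against 7.53%). DESeq2, which called 2.23% of 32084 genes lower and 1.89% higher, called 4 members, all lower, and limma called 0. Among them were a citrate synthase (LOC109048128, DESeq2 adjusted p = 0.00680), a pyruvate carboxylase (LOC109080026, 0.0248) and a 2-oxoglutarate dehydrogenase-like gene (LOC109083328, 0.0420).

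**Figure D1:**
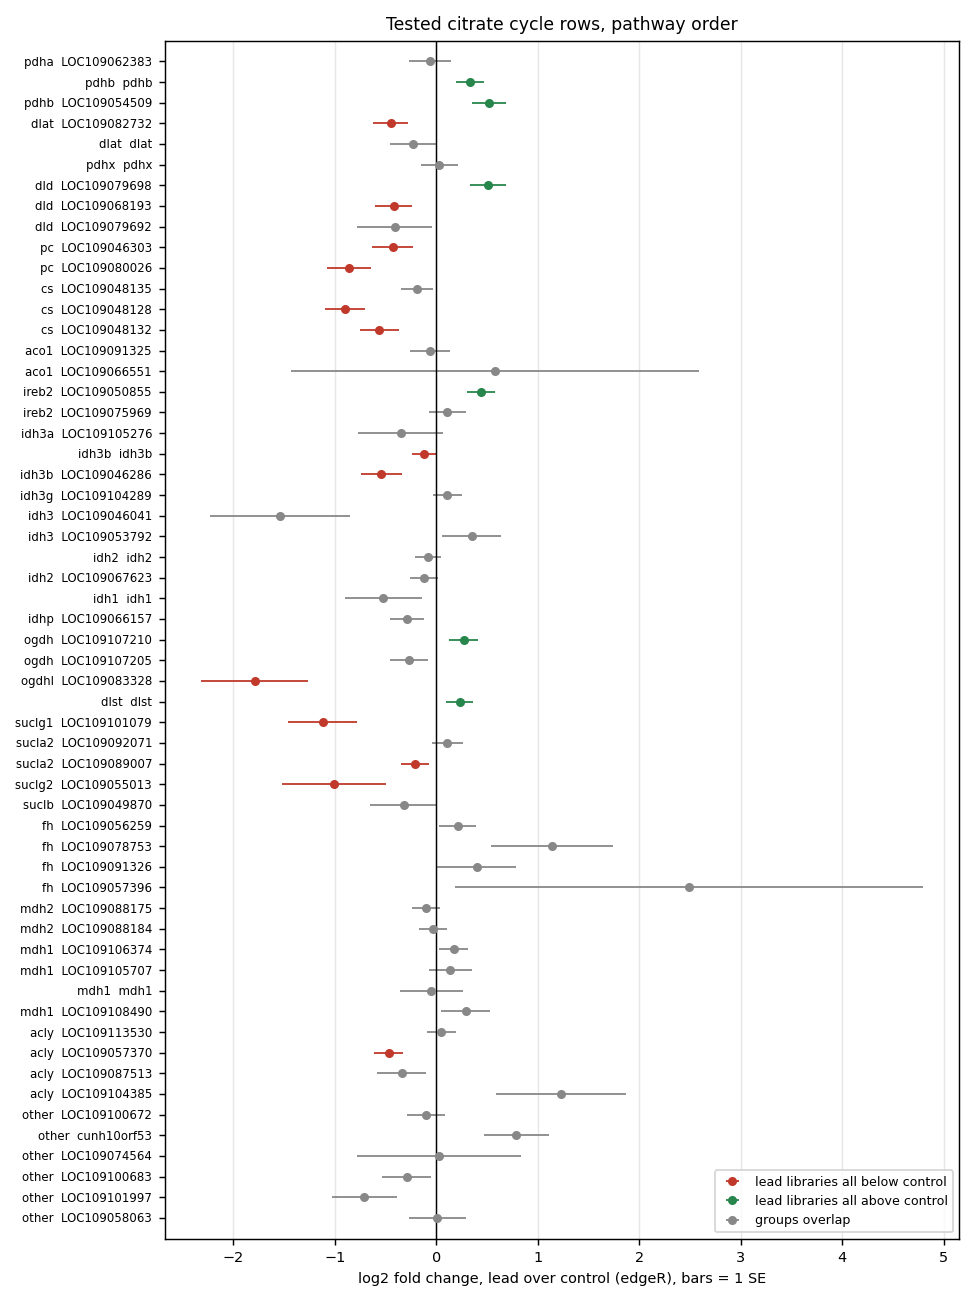
Log2 fold change of lead over control (x axis, edgeR, bars are 1 SE) for 57 tested members, from pyruvate entry at the top to citrate export and rows naming another protein at the bottom. Colours mark the 13 members drawn whose lead libraries all lay below control, the 6 whose lead libraries all lay above, and those that overlap.

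Levels differed far more between enzymes than between groups. The highest mean over 6 libraries was 234 FPKM, for the cytosolic malate dehydrogenase LOC109106374, and 6 tested members averaged at least 100 FPKM. These were rows grouped as cytosolic and mitochondrial malate dehydrogenase and as mitochondrial NADP-dependent isocitrate dehydrogenase. Among them LOC109105707 is described as a peroxisomal malate dehydrogenase isoform and lies within LOC109106374 on the same strand, so the 6 may not be separate genes. At the other end, 13 tested members averaged under 5 FPKM. Every phosphoenolpyruvate carboxykinase row, the enzyme that takes oxaloacetate into glucose synthesis, was under the filter, with at most 0.816 FPKM on average among 5 rows.

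**Figure D2:**
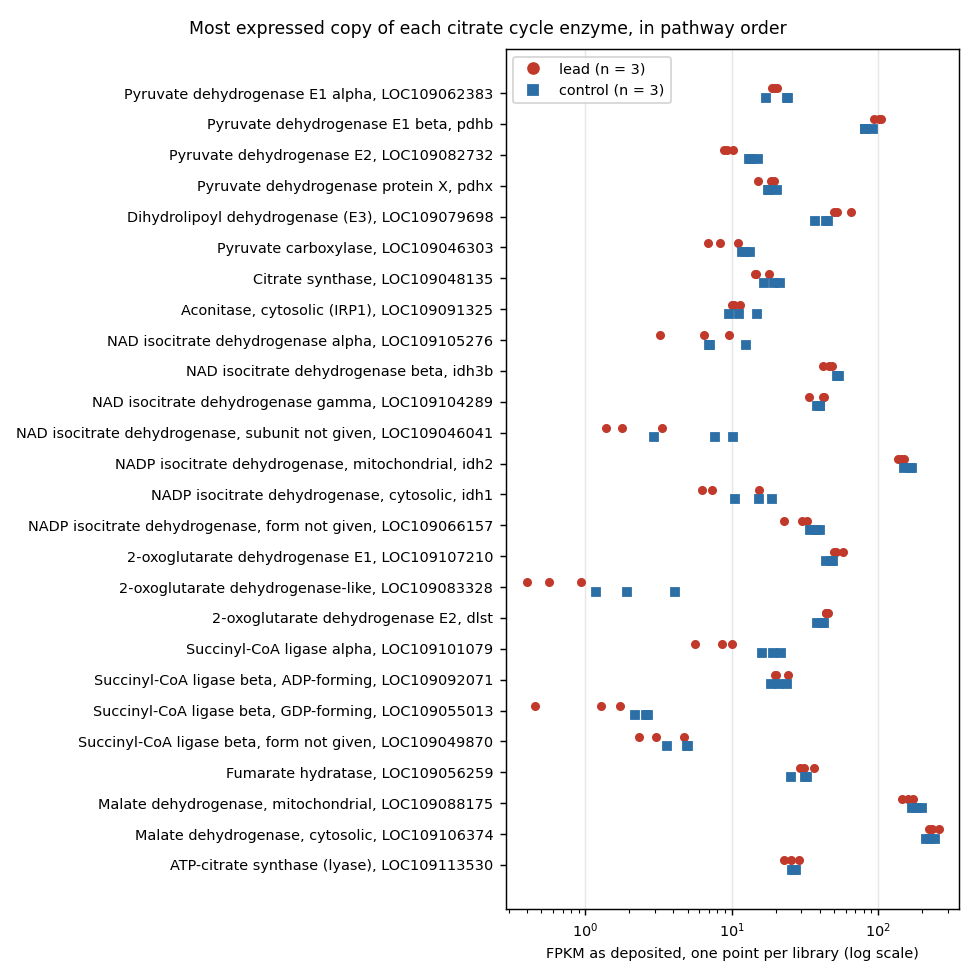
Deposited FPKM of the most expressed tested copy of each enzyme in each lead and control library (x axis, log scale; 1 point per library, lead above control in each row). Cytosolic malate dehydrogenase stands at 234 FPKM on average, the 2-oxoglutarate dehydrogenase-like gene at 1.52.

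The pyruvate dehydrogenase complex, which turns pyruvate into acetyl-CoA, had subunits on either side of control. Values that follow are TMM-scaled CPM, which are counts scaled to library size, and compare libraries rather than genes. The E1 beta subunit pdhb had 103, 107 and 91.2 CPM in lead brains, against 76.1, 88.4 and 74.3 CPM in control brains. The lead libraries were all above the controls, with a log2 fold change of 0.33 (SE 0.14, adjusted p = 0.296 by edgeR). The row LOC109054509, an E1 beta subunit by its orthology number, had 40.1, 38.5 and 31.5 CPM in lead brains, against 27.5, 27.7 and 21.9 CPM in control brains. It was again higher in every lead library, by 0.52 on the log2 scale (SE 0.17, adjusted p = 0.226 by edgeR).

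The E2 subunit of the complex, which carries the acetyl group, lay the other way. The copy LOC109082732 had 12.1, 12.7 and 13.3 CPM in lead brains, against 16.8, 19.4 and 15.95 CPM in control brains. Here every lead library was below every control library, with a log2 fold change of -0.45 (SE 0.17, adjusted p = 0.263 by edgeR). The copy named dlat had a log2 fold change of -0.23 (SE 0.23) with overlapping groups. The E1 alpha subunit LOC109062383 differed by -0.06 (SE 0.21) and protein X, pdhx, which anchors E3, by 0.03 (SE 0.18), and the groups of both overlapped.

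Dihydrolipoyl dehydrogenase, the E3 subunit shared by the pyruvate and 2-oxoglutarate complexes, had rows on either side. LOC109079698 had 46.1, 58.1 and 41.7 CPM in lead brains, against 36.8, 36.5 and 29.2 CPM in control brains. It was higher in each lead library, by 0.51 on the log2 scale (SE 0.18, adjusted p = 0.241 by edgeR). LOC109068193 had 11.5, 12.3 and 14.3 CPM in lead brains, against 15.9, 16.4 and 18.6 CPM in control brains, all lead libraries being lower (log2 fold change -0.42, SE 0.18, adjusted p = 0.299 by edgeR). The row LOC109079692 lies 1304 bases from LOC109079698 on the same strand and carries the same description, so both may be pieces of 1 gene model, and it had a log2 fold change of -0.41 (SE 0.37) with overlapping groups.

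Pyruvate carboxylase was lower in both tested copies. LOC109080026 lies on sequence NC_031705.1 from 11372550 to 11391563, minus strand, as the table gives it. It had 10.1, 10.8 and 15.2 CPM in lead brains, against 23.6, 18.7 and 23.3 CPM in control brains, so that the highest lead library was still under the lowest control library. Its lead mean was 55.0% of the control mean (12.01 ± 2.76 and 21.9 ± 2.76 CPM, SD, n = 3 each), with a log2 fold change of -0.86 (SE 0.22, adjusted p = 0.182 by edgeR). LOC109046303 had 10.9, 13.3 and 16.7 CPM in lead brains, against 18.2, 17.8 and 19.05 CPM in control brains. Its groups did not overlap either, and its log2 fold change was -0.43 (SE 0.20, adjusted p = 0.333 by edgeR). Of the other 3 pyruvate carboxylase rows, none was tested and LOC109046371 had no count in any library.

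Citrate synthase, which condenses acetyl-CoA with oxaloacetate and opens the cycle, was present as 3 rows within 199634 bases of sequence NC_031741.1, all on the minus strand. LOC109048128 (10103875 to 10117444) had 11.6, 17.3 and 16.6 CPM in lead brains, against 27.9, 26.7 and 30.4 CPM in control brains. The lead mean was 53.5% of the control mean, or -0.90 on the log2 scale (SE 0.20), and this was the member of smallest p (adjusted p = 0.161 by edgeR). LOC109048132 had 24.8, 31.3 and 31.2 CPM in lead brains, against 49.9, 34.3 and 44.2 CPM in control brains. Its lead libraries were also all lower (log2 fold change -0.56, SE 0.19, adjusted p = 0.229 by edgeR). LOC109048135 had 23.7, 23.7 and 27.9 CPM in lead brains, against 31.9, 25.5 and 28.4 CPM in control brains, and its groups overlapped (log2 fold change -0.19, SE 0.16). The authors' rule for reads shared by near-identical copies is not known here, so the split among these rows is uncertain. LOC109048128 also overlaps another row, LOC109048424, on the same strand, and how reads in such an overlap were counted is not given.

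Cytosolic aconitase, which doubles as an iron-regulatory RNA-binding protein, had 40.5, 36.1 and 35.4 CPM in lead brains, against 36.6, 49.8 and 30.5 CPM in control brains (LOC109091325). Its groups overlapped, with a log2 fold change of -0.06 (SE 0.20).

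The table's orthology numbers also place 2 rows described as iron-responsive element-binding protein 2, a relative of cytosolic aconitase that controls iron handling and is no cycle enzyme, among the members. LOC109050855 had 42.3, 41.8 and 37.7 CPM in lead brains, against 29.3, 27.2 and 33.1 CPM in control brains. It was higher in all lead libraries, by 0.44 on the log2 scale (SE 0.14, adjusted p = 0.224 by edgeR), and is typed as a pseudogene in the newer annotation. Its relative LOC109075969 overlapped between groups (log2 fold change 0.11, SE 0.18).

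**Figure D3:**
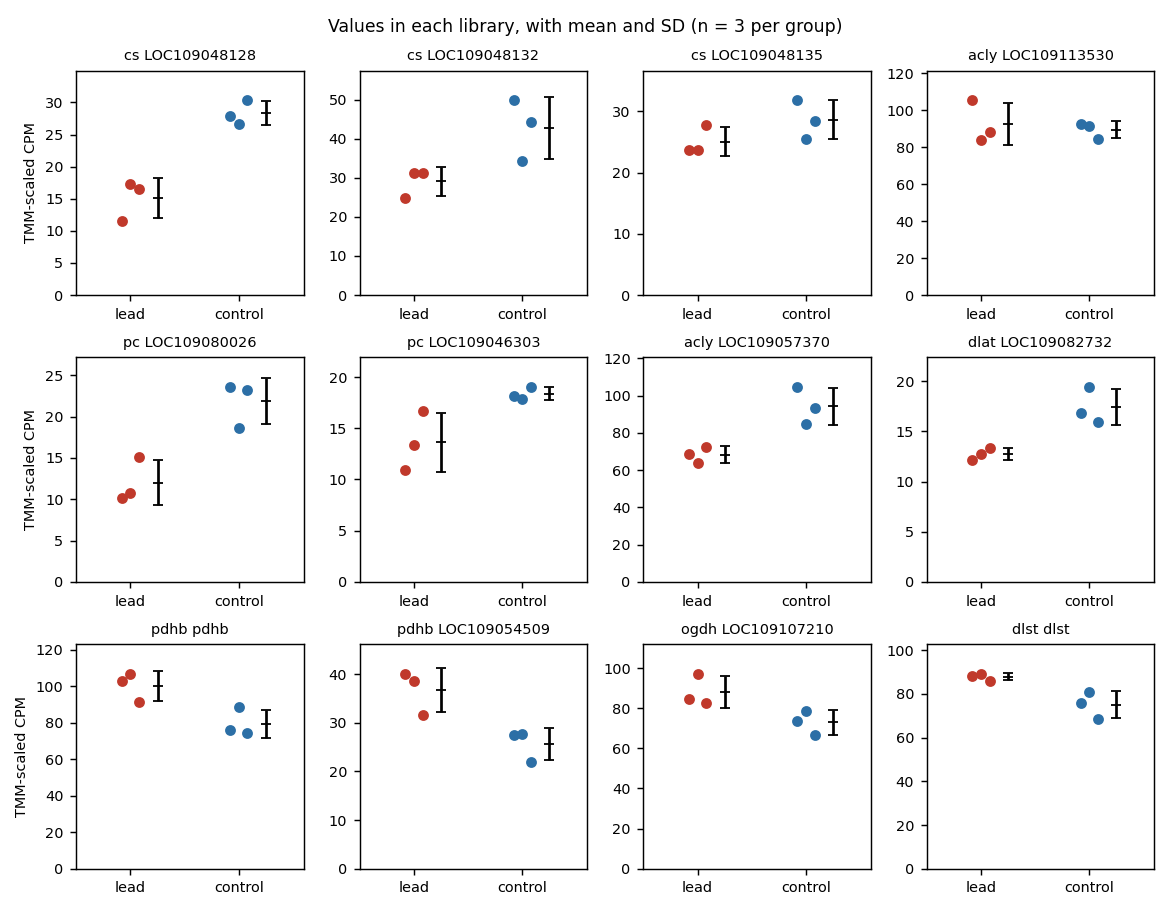
TMM-scaled CPM in each of the 3 lead and 3 control libraries for 12 members (y axes start at 0; coloured points are libraries, the black bar beside them is the mean with its SD). Citrate synthase LOC109048128 and pyruvate carboxylase LOC109080026 show lead libraries below control, both E1 beta rows, LOC109107210 and dlst show them above, and citrate synthase LOC109048135 and ATP-citrate lyase LOC109113530 overlap.

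Isocitrate dehydrogenase makes 2-oxoglutarate, with an NAD-linked form of 3 subunits and separate NADP-linked forms. The alpha subunit LOC109105276 had 11.4, 3.88 and 7.31 CPM in lead brains, against 13.5, 7.94 and 7.42 CPM in control brains, with a wide overlap (log2 fold change -0.35, SE 0.42). The beta subunit idh3b was a little lower in each lead library, at 55.6, 50.6 and 55.6 CPM, against 58.0, 59.5 and 58.3 CPM in control brains (log2 fold change -0.12, SE 0.12, adjusted p = 0.658 by edgeR). Its second copy LOC109046286 had 15.3, 11.6 and 10.5 CPM in lead brains, against 17.1, 20.1 and 17.05 CPM in control brains. These groups did not overlap, with a log2 fold change of -0.54 (SE 0.20, adjusted p = 0.262 by edgeR). The gamma subunit LOC109104289 overlapped between groups (0.11, SE 0.14 on the log2 scale).

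A short row inside LOC109046286 on the same strand, LOC109046041, had 0.372, 0.730 and 0.278 CPM in lead brains, against 1.48, 0.589 and 1.93 CPM in control brains. Its groups overlapped (log2 fold change -1.54, SE 0.69), and its reads cannot be told from those of the surrounding row. The NADP-linked mitochondrial form was among the highest members per length. Its copy idh2 had 229, 221 and 229 CPM in lead brains, against 243, 259 and 214 CPM in control brains, and overlapped (log2 fold change -0.08, SE 0.13). The cytosolic form idh1 had 19.7, 8.10 and 8.97 CPM in lead brains, against 22.2, 12.8 and 17.8 CPM in control brains (log2 fold change -0.52, SE 0.38). LOC109066157, an NADP-linked row whose form is not given, had a log2 fold change of -0.29 (SE 0.17), also with overlap.

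The 2-oxoglutarate dehydrogenase complex, which makes succinyl-CoA, differed between its E1 rows. LOC109107210 had 84.8, 97.2 and 82.5 CPM in lead brains, against 73.6, 78.6 and 66.5 CPM in control brains. It was higher in every lead library, though by 0.27 on the log2 scale only (SE 0.14, adjusted p = 0.364 by edgeR). LOC109107205, which ends 107 bases before it on the same strand, had 27.1, 37.2 and 40.0 CPM in lead brains, against 37.6, 39.6 and 48.4 CPM in control brains (log2 fold change -0.27, SE 0.19, groups overlapping). The E2 subunit dlst had 88.2, 89.3 and 86.1 CPM in lead brains, against 76.0, 80.8 and 68.6 CPM in control brains. Its lead libraries were all higher as well (log2 fold change 0.23, SE 0.13, adjusted p = 0.415 by edgeR).

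The E1 paralogue LOC109083328, described as 2-oxoglutarate dehydrogenase-like, averaged 1.52 FPKM. It had 2.47, 1.08 and 1.45 CPM in lead brains, against 4.69, 2.98 and 9.69 CPM in control brains. All lead libraries were lower, with a log2 fold change of -1.79 (SE 0.53, adjusted p = 0.209 by edgeR). Without control replicate 3, which had the highest value, the log2 fold change was -1.20, and with limma on log2(FPKM + 1) it was -0.99.

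Succinyl-CoA ligase, the step that yields a nucleoside triphosphate directly, had rows with separate and with overlapping groups. The alpha subunit LOC109101079 had 1.42, 2.53 and 2.04 CPM in lead brains, against 4.97, 3.78 and 4.26 CPM in control brains. The groups did not overlap, and the log2 fold change was -1.12 (SE 0.34, adjusted p = 0.214 by edgeR). The GDP-forming beta subunit LOC109055013 had 1.39, 0.499 and 1.79 CPM in lead brains, against 2.18, 2.76 and 2.52 CPM in control brains, lower in every lead library (log2 fold change -1.01, SE 0.51, adjusted p = 0.369 by edgeR). Of the ADP-forming beta subunit, LOC109092071 overlapped between groups (log2 fold change 0.11, SE 0.15). Its other copy LOC109089007 had 33.6, 38.7 and 40.1 CPM in lead brains, against 42.4, 44.6 and 42.9 CPM in control brains, without overlap (log2 fold change -0.21, SE 0.14, adjusted p = 0.474 by edgeR). LOC109049870, a beta subunit of unstated form, overlapped (-0.32, SE 0.33).

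Of succinate dehydrogenase, which oxidises succinate to fumarate, the table's rows were set aside by the rule. All 12 rows set aside were tested (median log2 fold change -0.07). At an unadjusted p under 0.05 they held 3 lower (8.77% of all genes were) and 1 higher (7.53% of all genes were). Of these 4, a pair were described as succinate dehydrogenase subunits, both lower. The descriptions of the others, LOC109049913 (lower) and rpap3 (higher), name other proteins, so the count is not one of succinate dehydrogenase alone. The flavoprotein row LOC109085159, named after its values were seen, had 7.82, 8.26 and 13.8 CPM in lead brains, against 26.3, 20.1 and 31.4 CPM in control brains. Its groups did not overlap (log2 fold change -1.38, SE 0.28, adjusted p = 0.157 by edgeR). Another row described as the flavoprotein, LOC109111237, went the other way. It had 60.05, 73.5 and 29.1 CPM in lead brains, against 34.1, 39.4 and 29.8 CPM in control brains, with overlapping groups (log2 fold change 0.65, SE 0.32).

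The fumarate hydratase and malate dehydrogenase members that follow had overlapping groups. Fumarate hydratase, which hydrates fumarate to malate, had its highest level per length in LOC109056259, at 17.6, 16.5 and 19.6 CPM in lead brains, against 16.2, 17.3 and 12.8 CPM in control brains (log2 fold change 0.21, SE 0.18). Mitochondrial malate dehydrogenase, which closes the cycle, had 271, 228 and 239.9 CPM in lead brains, against 284, 250.0 and 257 CPM in control brains in the copy LOC109088175 (log2 fold change -0.10, SE 0.14). Its second copy LOC109088184 had a log2 fold change of -0.03 (SE 0.14). The cytosolic form, which works in the malate-aspartate shuttle, had 377, 340 and 309 CPM in lead brains, against 301, 334 and 278 CPM in control brains in LOC109106374 (log2 fold change 0.17, SE 0.14). LOC109105707, nested in that row on the same strand, cannot be told apart from it.

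ATP-citrate lyase, which takes citrate out of the cycle, had copies that differed. LOC109113530 had 105, 83.7 and 88.1 CPM in lead brains, against 92.4, 91.6 and 84.5 CPM in control brains, with overlapping groups (log2 fold change 0.05, SE 0.14). LOC109057370 had 68.5, 63.8 and 72.5 CPM in lead brains, against 105, 84.8 and 93.4 CPM in control brains. All of its lead libraries were lower, with a log2 fold change of -0.47 (SE 0.14, adjusted p = 0.209 by edgeR). The low row LOC109088657, chosen after its values were seen, had 0 counts in the 3 lead libraries together. It had 52, 25 and 15 counts in the control libraries, 92 together. With the lead group set at a floor of 3 pooled counts, it was 26.8-fold lower than control after scaling to library size. That figure takes no account of the spread between libraries in either group, so it is no firm bound, and the row was not tested.

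Counts were then summed over the rows of each enzyme or subunit, without the rows naming another protein. Such a sum is free of the split between copies only if each shared read was counted once and within the summed rows. The rule for shared reads is not given, so whether this holds is not known. The cytosolic malate dehydrogenase sum includes LOC109105707, which is nested in LOC109106374. Of 28 sums, 0 were called by edgeR (19 of 32127 rows in that fit, 0.0591%, were). At an unadjusted p under 0.05, 5 sums were lower (8.76% of all rows were) and 1 was higher (7.53% of all rows). With limma on summed FPKM, 11 sums were lower, and the share of all rows in that fit is not given here. In the limma fit of single genes on log2(FPKM + 1), 12.5% of all genes were lower. Among the 5 were pyruvate carboxylase at 60.4% of the control mean (log2 fold change -0.73, SE 0.18) and citrate synthase at 69.5% (-0.53, SE 0.16). Also among them were succinyl-CoA ligase alpha at 46.0% and the 2-oxoglutarate dehydrogenase-like gene at 28.8%. Each of these is a single row, so nothing was summed and the value repeats that of the member. The 1 higher sum was E1 beta of pyruvate dehydrogenase at 130.2% of the control mean (0.38, SE 0.14). Without lead replicate 1, and without control replicate 3, 0 sums were higher at that p. The lead libraries all lay below control in 9 sums (12.6% of all rows) and all above in 3 (11.9%). Those above were E1 beta, E3 and dlst, the last a single row.

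**Figure D4:**
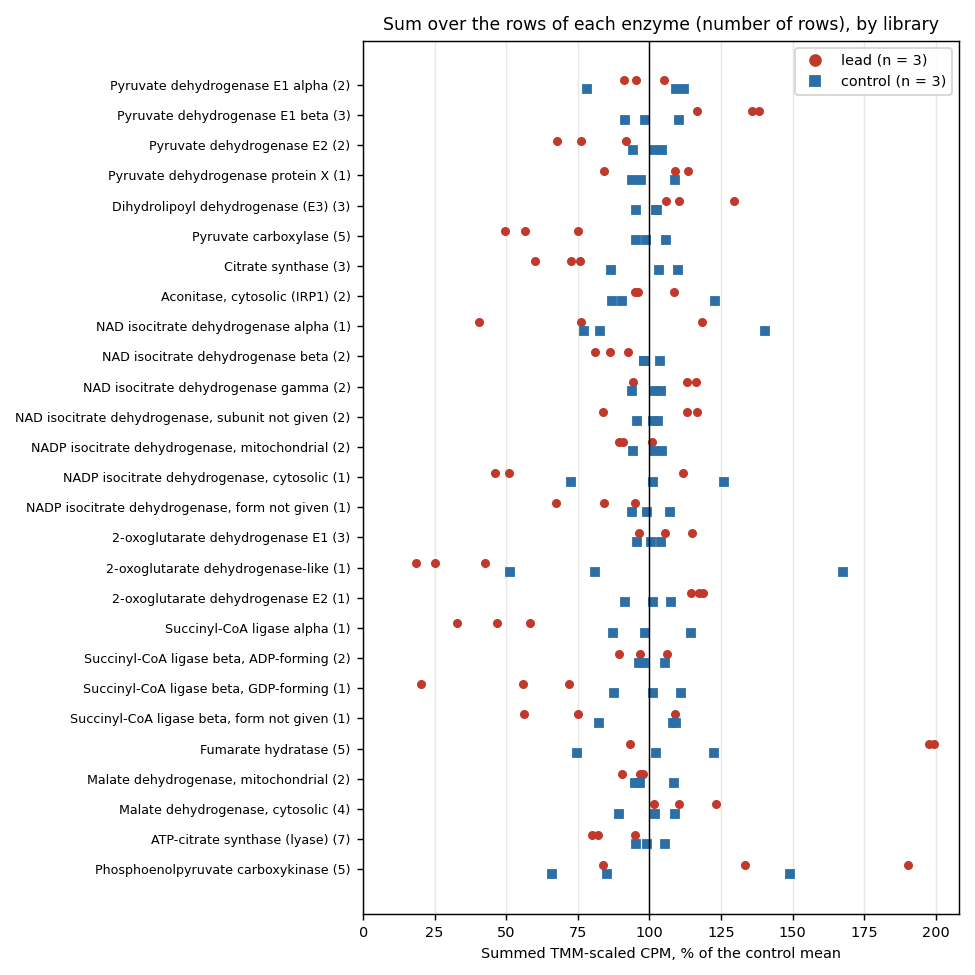
Summed TMM-scaled CPM per enzyme, for 27 sums, in each lead and control library, as a percentage of the control mean (x axis; vertical line at 100; row numbers in brackets are the rows summed). The lead libraries of pyruvate carboxylase and citrate synthase lie left of all control libraries, and those of pyruvate dehydrogenase E1 beta and dlst lie right of them.

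Copies of the same enzyme were compared within each library by the log2 ratio of their FPKM. There were 15 pairs of the 2 most expressed copies, 14 of them with a ratio in every library. The ratios of lead and control libraries did not overlap in 7. The same share over other pairs of genes was not computed, so whether 7 of 14 is more than usual is not known. At 3 libraries against 3 the exact two-sided permutation test cannot give a p under 0.10, which is the value for each of the 7, so these ratios are a description. For citrate synthase the log2 ratio of LOC109048135 to LOC109048128 was 0.91, 0.32 and 0.62 in lead brains, against 0.06, -0.19 and -0.23 in control brains. The less lowered copy thus made up more of the pair in every lead library. For E3 the mean log2 ratio of LOC109079698 to LOC109068193 was 0.92 ± 0.35 in lead brains and -0.01 ± 0.30 in control brains (SD, n = 3 each). For ATP-citrate lyase that of LOC109113530 to LOC109057370 was 0.66 ± 0.18 in lead brains and 0.16 ± 0.16 in control brains (SD, n = 3 each). The other 4 pairs were the E1 rows of 2-oxoglutarate dehydrogenase, which adjoin on 1 strand and may be pieces of 1 gene model, with a difference of 0.55 between groups, NAD isocitrate dehydrogenase beta and pyruvate carboxylase, with 0.43 each, and the ADP-forming succinyl-CoA ligase, with 0.33. Copies of mitochondrial malate dehydrogenase and of idh2 had overlapping ratios.

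**Figure D5:**
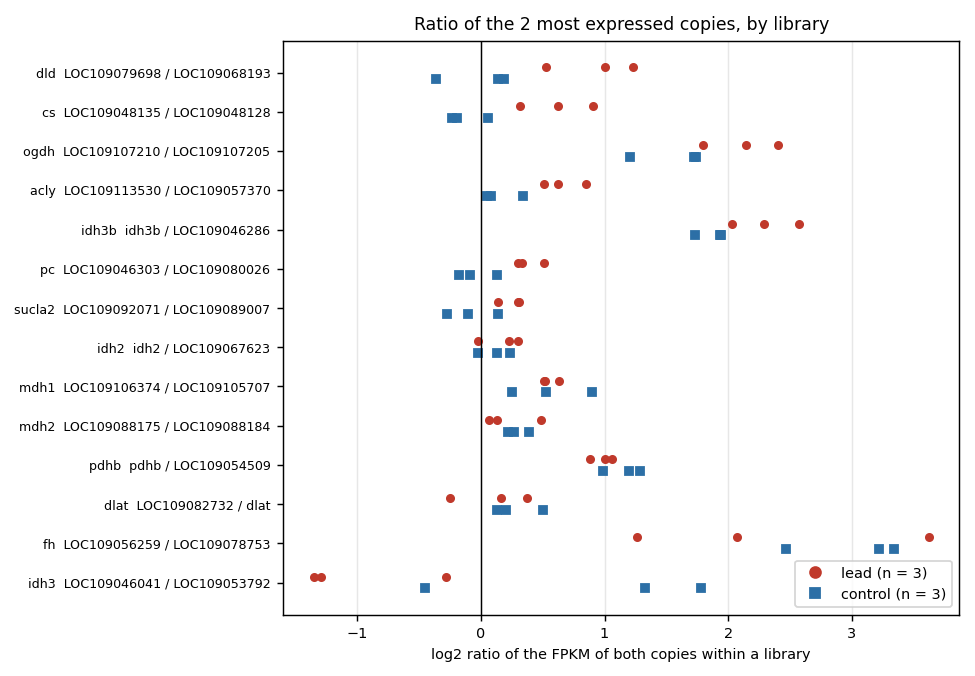
Log2 ratio of the FPKM of the 2 most expressed rows of an enzyme within each lead and control library (x axis; 1 point per library). The 7 topmost pairs do not overlap between groups; the NAD isocitrate dehydrogenase pair at the bottom has no stated subunit and may not be copies of 1 gene.

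Around the cycle, genes that set fuel entry and the exchange with glutamate were counted in the same fit. At an unadjusted p under 0.05, 9 of 49 tested genes were lower (18.4%, against 8.77% of all genes) and 2 higher (4.08%, against 7.53%). The median log2 fold change of the 49 was -0.09, and edgeR called 0. Among 11 tested pyruvate dehydrogenase kinases and phosphatases, which switch the complex off and on, 2 were lower (18.2%) and 1 higher (9.09%). Both lower ones were kinase isozyme 3 copies. LOC109112616 had 10.96, 11.3 and 15.3 CPM in lead brains, against 21.9, 18.9 and 26.7 CPM in control brains (log2 fold change -0.84, SE 0.21, adjusted p = 0.183 by edgeR). The higher one, pdpr, the regulatory subunit of the phosphatase, had 81.9, 81.8 and 75.6 CPM in lead brains, against 59.0, 66.4 and 52.6 CPM in control brains (log2 fold change 0.43, SE 0.14, adjusted p = 0.226 by edgeR). Of 6 tested mitochondrial pyruvate carrier rows, 0 were lower and 1 was higher at that p (16.7%), with a median of 0.14. The higher row, LOC109081871, had 41.85, 45.3 and 42.7 CPM in lead brains, against 24.1, 34.65 and 19.8 CPM in control brains (log2 fold change 0.73, SE 0.21, adjusted p = 0.209 by edgeR). Of 15 tested rows for carriers of citrate, dicarboxylates, oxoglutarate, aspartate or glutamate, 1 was lower (6.67%) and 0 higher (median -0.04).

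On the glutamate side, 2 of 8 glutamate dehydrogenase and glutaminase rows were lower and 0 were higher, both of them glutaminases. Of 6 aspartate aminotransferase rows, which pair 2-oxoglutarate with aspartate, 2 were lower (33.3%). The copy got1 had 26.1, 31.3 and 35.1 CPM in lead brains, against 55.5, 53.3 and 51.4 CPM in control brains, with no overlap (log2 fold change -0.79, SE 0.15, adjusted p = 0.149 by edgeR). The more highly counted cytosolic copy LOC109060878 lay above control in every lead library. It had 224, 188 and 188 CPM in lead brains, against 187, 171 and 172.5 CPM in control brains (log2 fold change 0.18, SE 0.14). Summed over all 8 rows of this list, tested or not, the groups overlapped, at 339 to 405 CPM in lead brains and 352 to 386 CPM in control brains. All 3 tested glutamine synthetase rows, the astrocyte enzyme that turns glutamate into glutamine, lay lower in every lead library (12.6% of all genes did). At an unadjusted p under 0.05, 2 of the 3 were lower. The remaining row, LOC109080911, had 0.271, 54.4 and 84.8 CPM in lead brains, against 117, 99.4 and 134 CPM in control brains. Its log2 fold change of -1.33 (SE 1.4) thus leans on lead replicate 1. The 3 glutamine synthetase rows also stand in the astroglial list and among the 49 tested genes. Rows with the GO term for glycolysis, none of them a citrate cycle row, held 13 lower (28.3%) and 1 higher (2.17%) of 46 tested (median -0.34). Oxidative phosphorylation held 23 lower (8.81%) and 27 higher (10.3%) of 261 (median 0.07). Of all genes, 8.77% were lower and 7.53% higher at that p.

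Cell type markers were counted in the same fit. In bulk tissue, fewer cells of a type and less RNA per cell cannot be told apart. Of 31 astroglial and radial glial rows, 20 were tested. At an unadjusted p under 0.05, 8 of them were lower (40.0%, against 8.77% of all genes) and 1 was higher (5.0%, against 7.53%). The median log2 fold change was -0.57. Their summed level nonetheless overlapped, at 4570 to 5254 CPM in lead brains and 4914 to 5701 CPM in control brains, and 1 row was at 0 in all libraries. Among the defining markers, the glial fibrillary acidic protein copy LOC109111834 had 198, 200.2 and 168 CPM in lead brains, against 371, 377 and 298 CPM in control brains. The gap junction alpha-1 copy LOC109113609 lay the other way, with 299, 292 and 293 CPM in lead brains, against 199, 200 and 186 CPM in control brains. The other tested gap junction alpha-1 rows, LOC109113611 (log2 fold change -0.71, SE 0.18) and LOC109107920 (-0.82, SE 0.36), were lower in every lead library. The excitatory amino acid transporter rows LOC109085655 (-2.11, SE 0.39) and LOC109090559 (-2.0, SE 0.32) were lower in every lead library as well. A highly counted S100-B row, LOC109096674, had overlapping groups (log2 fold change 0.25, SE 0.19). All glial rows named here were chosen after their values were seen. Of 32 tested neuronal rows, 12 were lower at that p (37.5%, against 8.77% of all genes) and 0 higher (median -0.25). Neuronal rows summed to 4888 to 5573 CPM in lead brains and 4662 to 6123 CPM in control brains. Microglial and macrophage rows held 4 lower (40.0%) and 0 higher of 10 tested (median -0.43). Oligodendrocyte rows held 6 lower (26.1%) and 0 higher of 23 (median -0.17). Microglial and macrophage rows summed to 133 to 166 CPM in lead brains and 158 to 246 CPM in control brains. Endothelial rows held 2 lower and 2 higher (13.3% each) of 15 tested (median -0.23). Ependyma and choroid plexus held 0 lower and 1 higher (16.7%) of 6 (median -0.03), and erythrocytes 1 lower and 1 higher (9.09% each) of 11 (median 0.07). Skeletal muscle held 0 lower and 0 higher of 5 (median 0.12), and retina and pineal 1 lower (16.7%) and 0 higher of 6 (median -0.1). The 1 tested pituitary row was not under that p. The part of these cell types in the lower pyruvate carboxylase and citrate synthase values was not tested.

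Of the 9 members whose description names another protein, 8 were tested. Among these, 0 had lower values at an unadjusted p under 0.05 (8.77% of all genes did) and 2 had higher values (7.53% did). Besides LOC109050855 the other was cunh10orf53, at 39.7, 22.6 and 16.8 CPM in lead brains, against 14.2, 13.6 and 17.9 CPM in control brains, with overlapping groups (log2 fold change 0.79, SE 0.32, adjusted p = 0.283 by edgeR). Without these 9 rows, 50 members were tested. At that p they held 10 lower (8.77% of all genes were) and 3 higher (7.53% of all genes were).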

How the data were processed

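RNA from 6 carp brain libraries was poly(A)-selected and sequenced in pairs, per the labels' protocols, which in places speak of adipose rather than brain. Tools listed in the submitters' processing notes are StringTie 1.3.0, HISAT2 2.0 and Bowtie 0.12.2, beside mm8, a mouse build. The assembly of the carp positions and the rules for strand, overlaps and multiple hits are not given in the sources used here. The authors deposited, per the file headers, a count per gene and library, unscaled and in whole numbers, together with FPKM computed by the authors.

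Counts were tested with edgeR 4.0.16 (R 4.3.3; TMM, robust quasi-likelihood, lead against control) on 32149 genes that reached 1 FPKM in 3 or more libraries, with Benjamini-Hochberg adjustment over all of them; a call is an adjusted p under 0.05. The biological coefficient of variation was 36.6%. Alternatives used limma 3.58.1, DESeq2 1.42.0, other scalings and filters, a replicate block and leaving out libraries. Named members are the most expressed tested copy of each enzyme and the 12 of smallest p; others were named after their values were seen. Members, enzyme assignments and gene lists were chosen with earlier results of these data known. Sequences were not used here. Values of 1 member are not reported here, though it is included in the counts.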

Additional observations from a re-analysis of the deposited data

How the results depend on the processing

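Over all genes, 19 were called by edgeR, against 1324 with DESeq2, 30 with no low-value filter, 1 with the replicate block and 4 to 25 when each library was left out (4 without lead replicate 2). DESeq2 called 4 members, where edgeR, limma and the fits leaving out a library called 0. Members higher at an unadjusted p under 0.05 numbered 5, against 2 with limma on log2(FPKM + 1) or log2(FPKM + 0.1), 3 with library totals only, 3 at an FPKM of at least 5, 3 without rows naming another protein, and 2 to 5 without a library. Members lower numbered 10, and 8 to 14 over all alternatives. The shares of all genes moved too. Lower genes made up 8.77% in the main fit and 5.27% to 12.5% over the alternatives, and higher genes 7.53% and 4.56% to 8.89%. The members' median log2 fold change of -0.09 became -0.17 and -0.18 with limma at pseudocounts of 1 and 0.1, -0.19 with library totals only and -0.18 at an FPKM of at least 5. An FPKM of at least 5 left 45 members tested, and no low-value filter 75, against 58 in the main fit. Counts and medians from these 2 fits are thus over another set of members. Members with all lead libraries above control numbered 6, and 6 to 13 without a library (13 without lead replicate 2, 10 without lead replicate 3), as against 14.8% to 19.6% of all genes in these fits. Sums per enzyme that were lower numbered 5, and 11 with limma on summed FPKM, while higher sums numbered 1, and 0 to 1 without a library. In the limma fit of single genes on log2(FPKM + 1), 12.5% of all genes were lower, against 8.77% in the main fit. The sign turned for LOC109062383 (-0.22 to 0.03 without a library, above 0 without control replicates 1 or 2), LOC109091325 (-0.21 to 0.15 without a library, above 0 without control replicate 2), LOC109113530 (-0.06 with limma at either pseudocount and with library totals only, -0.04 at an FPKM of at least 5, -0.05 to 0.11 without a library, below 0 without lead replicate 1) and pdhx (-0.08 with limma at either pseudocount and with library totals only, -0.06 at an FPKM of at least 5, and -0.05 to 0.15 without a library). The median of all genes moved by -0.08 with limma at a pseudocount of 1 and by -0.10 at 0.1 and with library totals only, which is larger than the values of LOC109113530 and pdhx. For the turns at an FPKM of at least 5 and without a library the cause was not tested. Replicate numbers are not stated to pair the libraries: same-number deviations correlated at 0.171, 0.065 and 0.126, and lead replicate 2 correlated best with control replicate 3 (0.081). With the replicate block, 11 members were lower (10.0% of all genes were) and 4 higher (8.89% of all genes were) at an unadjusted p under 0.05, and 0 were called. Citrate synthase LOC109048128 and pyruvate carboxylase LOC109080026 kept their sign and an unadjusted p under 0.05 in all 15 alternatives, with log2 fold changes of -1.02 to -0.74 and -1.07 to -0.75. Low counts limit LOC109083328, LOC109101079 and LOC109055013.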
